A study of Homo sapiens with 3 samples.

Results

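Transcripts of 10 regulators and outputs of the integrated stress response and the unfolded protein response were measured in untreated HEK293T cells. The genes were chosen by name (ATF4, DDIT3, ASNS, TRIB3, CHAC1, HERPUD1, XBP1, PPP1R15A, ATF6 and ERN1), 10 of the 35880 gene symbols in the deposited table, and they hold 73 of its 185299 transcripts. HEK293T is an established line of human embryonic kidney origin, with the large T antigen of SV40. The cells had no treatment, grew in high-glucose medium with 10% serum and were harvested at 70% confluence. The study has 1 group of 3 libraries, which the labels call biological replicates 1, 2 and 3, made from oligo-dT-captured RNA with a directional kit. Separate cultures are not named, so p-values cover nothing but the differences among these 3 libraries, possibly technical ones, and no stressed or other condition was available for comparison.

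The unfolded protein response has 3 sensors in the membrane of the endoplasmic reticulum, which respond to misfolded protein. IRE1 (ERN1) is a kinase and endoribonuclease that removes a short intron from XBP1 mRNA in the cytoplasm, and the reading frame shift yields an active transcription factor. ATF6 moves to the Golgi, where the proteases MBTPS1 and MBTPS2 release its transcription factor domain. PERK (EIF2AK3) is also an arm of the integrated stress response, in which related kinases phosphorylate the initiation factor eIF2, slow general translation and favour translation of ATF4 through small reading frames in its leader. ATF4 then drives amino acid genes such as ASNS, the pseudokinase TRIB3, the glutathione-degrading enzyme CHAC1, the transcription factor CHOP (DDIT3) and GADD34 (PPP1R15A), which brings phosphatase to eIF2 and closes the loop. HERPUD1 encodes a membrane protein of the degradation machinery of the endoplasmic reticulum.

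The sequence that IRE1 cuts is shown first, because the spliced XBP1 transcripts are told from the unspliced XBP1-201 by this join. Both stretches are on the minus strand of chromosome 22 in hg38, within the coding sequence, and come from GENCODE release 29 transcripts. In the unspliced form, chr22:28796092-28796177, capitals mark the 26-base intron as it is placed in XBP1-202, chr22:28796122-28796147. XBP1-207 places its gap of 26 bases at chr22:28796124-28796149 instead. Both placements leave the same spliced letters, so the capitals follow the annotation of XBP1-202 and do not settle which bonds IRE1 cuts. In the spliced form, capitals mark the last base before and the first base after the join, also as placed in XBP1-202.
XBP1 unspliced: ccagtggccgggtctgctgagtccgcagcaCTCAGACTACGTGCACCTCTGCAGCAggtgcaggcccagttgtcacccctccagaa
XBP1 spliced: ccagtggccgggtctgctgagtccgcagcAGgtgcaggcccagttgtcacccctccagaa
The coding sequence has 261 codons in XBP1-201, the main unspliced transcript, and 376 codons in the spliced XBP1-202.

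All 10 promoters (250 bases before to 50 after each start) matched the RefSeq table on GRCh38.p14 and were searched on both strands for short motifs. Those of HERPUD1 and PPP1R15A are shown because they hold the stress motifs found in the fewest promoters. In the HERPUD1 stretch, chr16:56931962-56932041 on the plus strand, capitals mark a C/EBP-ATF composite element (TGATGNAA, read here on the other strand) and an ERSE-II element (ATTGG, any base, CCACG). In the PPP1R15A stretch, chr19:48872321-48872390 on the plus strand, capitals mark a cAMP response element (TGACGTCA).
HERPUD1 promoter: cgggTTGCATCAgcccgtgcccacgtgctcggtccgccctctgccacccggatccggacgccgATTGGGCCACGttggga
PPP1R15A promoter: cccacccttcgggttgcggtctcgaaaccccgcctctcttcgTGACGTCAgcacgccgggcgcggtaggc
The C/EBP-ATF letters lie at -176 to -169 from the RefSeq start of HERPUD1 and at -209 to -202 in CHAC1. They occur in 3.62% of the 35116 promoters of the table. The ERSE-II letters, at -117 to -107 in HERPUD1, occur in 0.0541% of promoters and include a CCAAT box on the other strand. The cAMP response element, at -58 to -51 in PPP1R15A, occurs in 1.85% of promoters. The longer ERSE element (CCAAT, 9 bases, CCACG; 0.0769% of promoters) and TGACGTGG, bound by ATF6 and XBP1 (0.729%), were in none of the 10 windows. The general elements were more frequent in the table. CCAAT was in 34.6% of promoters and in those of DDIT3, CHAC1, HERPUD1 and ERN1, and TATAAA was in 11.5% and in those of ATF4, HERPUD1 and PPP1R15A. A match is a description of letters in the window, not a measured binding site. The windows follow RefSeq starts, which can differ from the GENCODE starts given below. A motif not found in a window may therefore lie near another start of the gene.

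Levels are given in TPM, the abundance of a transcript relative to all transcripts of its library after scaling for transcript length. A gene's TPM is the sum over its transcripts, and values are mean ± SD of 3 libraries. Gene positions are those of GENCODE release 29 on hg38. Levels spanned 174-fold, from CHAC1 to ATF4, with a median of 13.6 TPM over the 10 genes against 6.25 TPM over the 19797 protein-coding symbols.

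**Figure D1:**
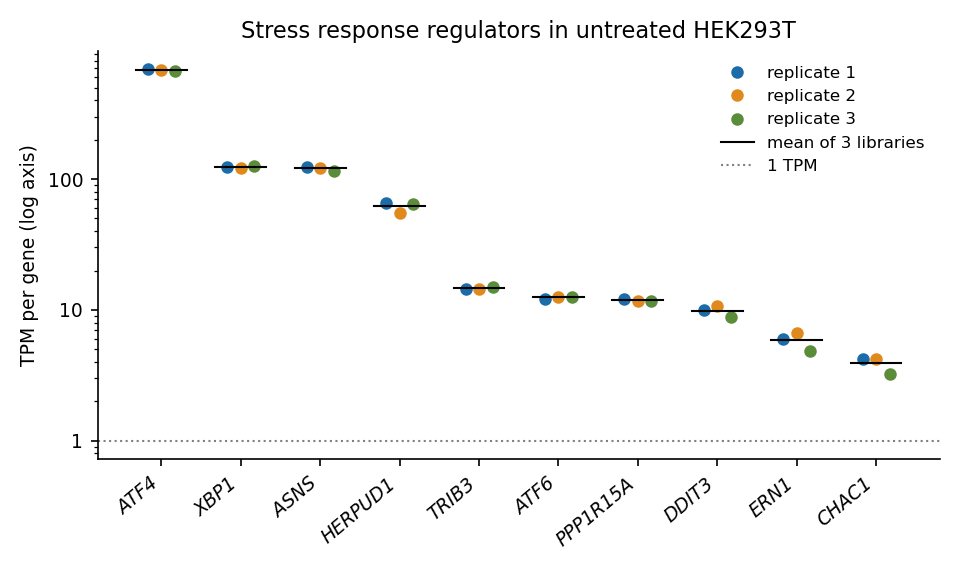
TPM of each gene (vertical log axis) in each of 3 libraries (points), with the mean as a bar and 1 TPM as a dotted line. ATF4 stands alone near 680.3 TPM, XBP1, ASNS and HERPUD1 lie between 55.0 and 125 TPM, and the other 6 genes lie between 3.23 and 15.0 TPM.

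Both sensors among the 10 genes were expressed at modest levels. ATF6 (ENSG00000118217.5, chromosome 1, 161766294 to 161964070, plus strand) had 12.1, 12.6 and 12.6 TPM in replicates 1, 2 and 3, a mean of 12.5 ± 0.277. The 3 libraries differed by little, and the gene stood at percentile 58.5 of protein-coding symbols. ERN1 (ENSG00000178607.15, chromosome 17, 64039142 to 64130819, minus strand) had 5.99, 6.70 and 4.83 TPM, a mean of 5.84 ± 0.945. Replicate 3 was the lowest and replicate 2 the highest, and every ERN1 value lay below every ATF6 value.

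The 3 transcription factors lay far apart, from the highest of the 10 genes to the eighth. ATF4 (ENSG00000128272.14, chromosome 22, 39519695 to 39522685, plus strand) had 689, 681 and 672 TPM, a mean of 680.3 ± 8.38. It ranked 192 of 35880 symbols and held 65.1% of the summed TPM of the 10 genes, which was 1045 ± 15.1. XBP1 (ENSG00000100219.16, chromosome 22, 28794555 to 28800597, minus strand) had 124, 122 and 125 TPM, a mean of 124 ± 1.44. Every ATF4 value lay above every XBP1 value, and the ratio of their mean TPM was 5.51. DDIT3 (ENSG00000175197.12, chromosome 12, 57516588 to 57521737, minus strand), which encodes the pro-apoptotic factor CHOP, had 9.93, 10.8 and 8.89 TPM, a mean of 9.88 ± 0.97. Its highest library was replicate 2 and its lowest was replicate 3.

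Among the outputs, the metabolic enzyme ASNS was the highest, with a mean TPM 1.96 times that of HERPUD1. ASNS (ENSG00000070669.16, chromosome 7, 97852118 to 97872542, minus strand), asparagine synthetase, had 124, 121 and 116 TPM, a mean of 121 ± 4.12. HERPUD1 (ENSG00000051108.14, chromosome 16, 56932048 to 56944863, plus strand) had 65.8, 55.0 and 64.2 TPM, a mean of 61.7 ± 5.81, with replicate 2 below the other two. TRIB3 (ENSG00000101255.10, chromosome 20, 362835 to 397559, plus strand), which binds ATF4 and CHOP and dampens their activity, had 14.4, 14.4 and 15.0 TPM, a mean of 14.6 ± 0.337. The TPM ranges of these 3 genes did not overlap. CHAC1 (ENSG00000128965.12, chromosome 15, 40952962 to 40956519, plus strand) had 4.25, 4.24 and 3.23 TPM, a mean of 3.91 ± 0.589. It was the lowest of the 10 genes, at percentile 45.7 of protein-coding symbols, and replicate 3 was its lowest library. The feedback gene PPP1R15A (ENSG00000087074.7, chromosome 19, 48872392 to 48876057, plus strand) had 12.2, 11.7 and 11.7 TPM, a mean of 11.9 ± 0.271.

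Ordered by mean TPM, the genes ran ATF4, XBP1, ASNS, HERPUD1, TRIB3, ATF6, PPP1R15A, DDIT3, ERN1 and CHAC1. Of the 9 neighbouring pairs in this order, 2 had overlapping TPM ranges, namely XBP1 with ASNS and ATF6 with PPP1R15A. In each of those, the gene with the higher mean was the higher one in 2 of 3 libraries, so their order was not resolved. The other neighbours did not overlap, including TRIB3 over ATF6, where the ratio of mean TPM was only 1.17.

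All 10 genes were called above 1 TPM by limma's moderated test with Benjamini-Hochberg adjustment over the 21990 symbols above 0 in at least 1 library. Over all those symbols 58.5% were called above 1 TPM and 33.9% below, so a call above this level is common. The log2 difference from 1 TPM was largest for ATF4, 9.40 ± 0.011 (SE, adjusted p = 4.35e-10 by limma), and smallest for CHAC1, 1.94 ± 0.109 (adjusted p = 8.09e-05 by limma). By the smallest root mean square difference of log2 TPM over the 3 libraries, the symbols nearest to ATF4 were ARF1 (0.0176, mean 674 ± 14.3 TPM) and CANX (0.0184, mean 686 ± 3.41 TPM). Those nearest to CHAC1 were PCLO (0.0598, mean 3.79 ± 0.589 TPM) and AFF3 (0.0659, mean 3.87 ± 0.388 TPM). With 3 libraries of 1 group, likeness of this kind reflects mainly the level.

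The spread of each gene between libraries was set beside genes of like level, those within 1.5-fold in mean TPM. The coefficient of variation (CV, SD divided by mean) of ATF4 was 1.23%, near the median of 1.27% for genes of its level, and that of XBP1 was 1.16% against 2.27%. TRIB3, ATF6 and PPP1R15A also varied little, with CVs of 2.31%, 2.22% and 2.28% against medians of 5.14%, 5.52% and 5.57%. HERPUD1 varied most for its level. Its CV of 9.41% compared with a median of 3.02%, and 98.3% of 2286 genes of like level had a lower CV. ERN1, CHAC1, DDIT3 and ASNS had CVs of 16.2%, 15.1%, 9.81% and 3.42%, each above its own median. These are descriptions of 3 libraries, with no test.

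Depth limits the low genes. The deposited estimated counts, which match replicate 1, gave 19962 reads for ATF4, 164 for DDIT3 and 115 for CHAC1, out of 33184885. Counting error alone, 1 divided by the square root of those reads, would give a CV of 0.708% for ATF4, 7.81% for DDIT3 and 9.33% for CHAC1. For DDIT3 the measured CV of 9.81% was therefore little above counting error, while read totals gave 2.50% for HERPUD1 and 3.90% for ERN1. Such totals understate the counting error of TPM where short transcripts hold much of it. In replicate 1 the short transcript ERN1-205 held 24.6% of ERN1 TPM on 10.2 estimated reads. Protein-coding HERPUD1 transcripts held 49.3% of its TPM but 72.3% of its estimated reads (means of 3 libraries), so its other entries also weigh more in TPM than in reads. How far the spread of ERN1 or of HERPUD1 exceeds counting error is therefore not known. The measured CVs of TRIB3, PPP1R15A and XBP1 lay below their counting errors of 3.65%, 4.02% and 1.52%, and that of ATF6 was near its 2.20%. These figures cover counting error only, and the depth of replicates 2 and 3 is unknown because TPM does not keep it.

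**Figure D2:**
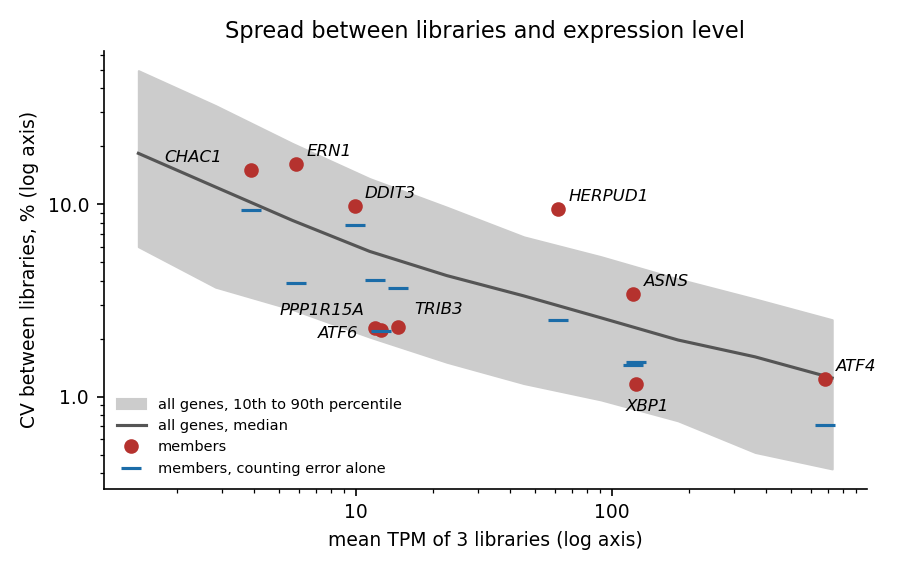
CV between 3 libraries (percent, vertical log axis) against mean TPM (log axis) for the 10 genes (red points). The line and band are the median and the range from the 10th to the 90th percentile over all genes of mean TPM of at least 1. Blue ticks are the counting error from each gene's read total in replicate 1. HERPUD1, at 9.41%, lies above the band, and XBP1, at 1.16%, lies below the median line.

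One transcript dominated some of these genes, and in others the TPM was split over several annotated forms. ATF4-202 held 97.4% ± 0.0654 of ATF4 TPM, ATF6-201 held 99.0% ± 0.888 of ATF6, PPP1R15A-201 held 94.4% ± 1.23 and TRIB3-201 held 93.1% ± 0.632. ASNS-202 held 80.6% ± 0.433 of ASNS and XBP1-201 held 71.8% ± 0.496 of XBP1. In 9 of the 10 genes the same transcript was the most abundant in every library, the exception being CHAC1. Transcripts of a gene share most of their reads, so these shares are estimates of kallisto's assignment and were not tested.

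HERPUD1 was the most divided. HERPUD1-201, which encodes 390 codons, had 20.8, 23.5 and 22.4 TPM and held 36.4% ± 5.72 of the gene. Protein-coding transcripts together held 49.3% ± 1.76 of its TPM, nonsense-mediated decay 17.7% ± 2.00, processed transcripts 20.5% ± 2.70 and retained introns 12.5% ± 5.16. As a share of estimated reads, where short transcripts weigh less, the protein-coding part was 72.3% ± 0.745. The low value of replicate 2 lay outside HERPUD1-201, which was at its highest there. The protein-coding transcripts together were still lowest in replicate 2, at 31.1, 27.5 and 32.6 TPM. HERPUD1-203, with 366 codons, had 5.73, 0.917 and 5.62 TPM, and the decay transcript HERPUD1-210 had 12.0, 8.54 and 12.5 TPM, both lowest in replicate 2. HERPUD1-207 was also lowest there, at 7.38, 4.53 and 8.60 TPM.

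For ERN1 the spread between libraries lay in short entries. The full-length ERN1-201, with 977 codons, had 3.32, 3.07 and 3.13 TPM, a mean of 3.18 ± 0.129. The retained-intron transcripts summed to 1.76, 2.12 and 0.839 TPM and were lowest in replicate 3, as the gene was. ERN1-201 held 55.4% ± 9.55 of the TPM but 91.6% ± 1.56 of the estimated reads. Its second coding entry, ERN1-208, held 15.9% ± 1.49 of the TPM, and the retained-intron entry ERN1-205 held 19.0% ± 4.94. Protein-coding ERN1 transcripts together had 4.23, 4.08 and 3.99 TPM.

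In DDIT3 the 3 transcripts with TPM above 0 are all protein-coding. DDIT3-201 had 7.78, 7.49 and 4.67 TPM, while DDIT3-202, which encodes a protein of the same 169 codons, had 0.838, 1.43 and 2.94 TPM. Replicate 3 was therefore lowest for DDIT3-201 and highest for DDIT3-202, and the sum over the gene varied less than either. DDIT3-205, with 192 codons, held 15.1% ± 2.27 of the TPM. CHAC1 differed most in its make-up. CHAC1-204, with 264 codons, had 2.70, 0.907 and 2.94 TPM, and the 37-codon CHAC1-203 had 1.26, 1.09 and 0 TPM. In replicate 2 the most abundant entry was ENST00000617961.1, with 1.81 TPM against 0 and 0.00369 TPM in replicates 1 and 3. Of the 5 CHAC1 transcripts, 3 are in GENCODE release 29 only under another version number and were given no type here, among them ENST00000444189.6, which held 10.2% of the gene in replicate 2. With 115 estimated reads for the whole gene in replicate 1, differences of this size between CHAC1 transcripts rest on few reads.

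**Figure D3:**
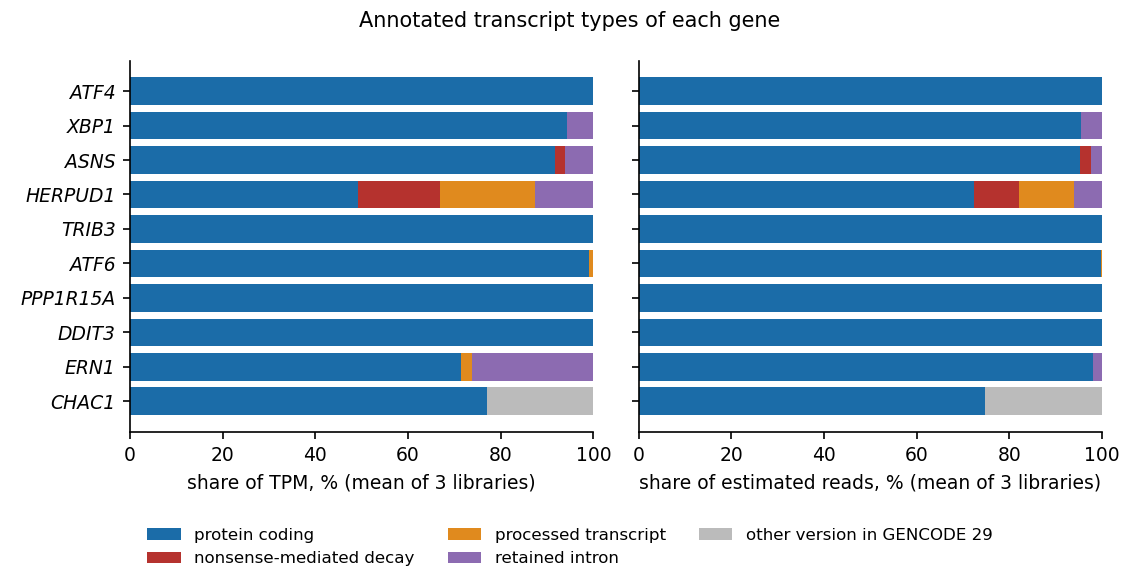
Share of each gene's TPM (left) and of its estimated reads (right) in percent (mean of 3 libraries), by annotated transcript type. HERPUD1 is 49.3% protein-coding by TPM and 72.3% by reads, ERN1 is 71.4% and 98.0%, and CHAC1 has 22.9% of its TPM in transcripts that GENCODE release 29 holds in another version.

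Most XBP1 TPM was assigned to forms that keep the intron shown above. The unspliced transcripts XBP1-201, XBP1-203, XBP1-204 and XBP1-206 summed to 95.1, 93.6 and 95.0 TPM, a mean of 94.6 ± 0.859. The spliced transcripts XBP1-202 and XBP1-207 summed to 26.3, 25.0 and 26.3 TPM, a mean of 25.9 ± 0.743. The spliced share of the pair was 21.6%, 21.1% and 21.7%, a mean of 21.5% ± 0.335, with no library standing apart. Expressed in estimated reads it was 13.2% ± 0.228. Nearly all of the spliced value came from XBP1-202, at 26.3, 25.0 and 26.3 TPM, while XBP1-207 had at most 5.82e-06 TPM.

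That share rests on little sequence. XBP1-202 is 1131 bases long and XBP1-207 is 1794, and both encode 376 codons. Of the 31-base words of XBP1-202, 97.8% are also in XBP1-201, and no word is particular to XBP1-202 among XBP1 transcripts. Only 24 of its words cross the join and tell it from the unspliced forms, and XBP1-207 holds the same 24. How far the assignment to XBP1-202 depends on its shorter length was not tested, so the share describes kallisto's assignment rather than a count of reads over the join.

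The leaders of 4 of the 10 genes contain upstream ATGs in their main coding transcript, a feature through which stress can control translation. ATF4-202 has a leader of 280 bases with 3 upstream reading frames of 1, 3 and 59 codons, the last of which runs past the ATF4 start in another frame. DDIT3-201 has 180 bases and 3 upstream ATGs in 2 frames of 34 and 73 codons, and the longer also runs past the main start. PPP1R15A-201 has 269 bases and frames of 22 and 26 codons, both ending before the main start. TRIB3-201 has the longest leader, 553 bases, with frames of 8, 77 and 14 codons. In the main coding transcripts of the other 6 genes, leaders had no upstream ATG and ranged from 20 bases in CHAC1-204 to 180 in ASNS-202. Leaders of other transcripts are not given here, and CHAC1-204 held only 21.4% of CHAC1 TPM in replicate 2. Over 12229 genes with a leader, 49.1% had at least 1 upstream ATG, 16.9% had an out-of-frame upstream frame running past the main start, and the median leader was 174 bases. These are properties of the annotation, and translation was not measured.

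Some member sequence is not particular to the gene. For ATF4, 29.7% of the 31-base words are shared with transcripts of its pseudogenes ATF4P1, ATF4P2, ATF4P3 and ATF4P4, which together had 0.247 TPM. ASNS shared 7.03% with transcripts of other symbols in the deposited table, most with ASNSP1 at 0.565 TPM. A further gene on the same strand, AC079781.5, overlaps ASNS and holds 42.2% of its words, but it has no value here, so how it would divide the reads was not tested. No words were shared by XBP1 or by the 2 CHAC1 transcripts whose sequence was matched. DDIT3 overlaps MARS, the methionyl-tRNA synthetase gene, on the opposite strand (chromosome 12, 57475445 to 57517569). In DDIT3, 21.5% of the words are the reverse complement of MARS words, and MARS had 208 TPM against 9.88 for DDIT3. The library kit keeps strand, but the strand setting of the counting is not given in the sources used here, so the DDIT3 level is uncertain to that extent and the contribution of MARS reads was not tested.

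Each gene was next compared with its paralogs, dimer partners or parallel sensors within the same library. The difference of log2(TPM + 0.1) was tested with limma and Benjamini-Hochberg adjustment over 21989 symbols, and 14 chosen pairs were read. In 5 pairs the partner was called higher, in 8 lower and in 1 the difference was undecided. Such calls carry little information by themselves. Of all symbols, 100% were called different from ATF4, 99.4% from XBP1, 99.2% from ASNS, 97.1% from PPP1R15A, 97.1% from ATF6, 97% from TRIB3, 96.6% from HERPUD1, 95.2% from DDIT3, 94.6% from CHAC1 and 94.1% from ERN1. The sizes and their spread are therefore what the comparison gives. For DDIT3, CHAC1, HERPUD1 and ERN1, limma's shared error was set almost wholly by all genes together. Its SEs were larger there, but its p-values were far smaller, except for EIF2AK3 with ERN1. For their pairs the errors and adjusted p-values below come from a t-test on each gene's own moderated error, called the own-error t-test. It was added after the data were seen. It takes the errors of both genes as independent, so it does not use the pairing within libraries.

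Among sensors, ATF6B, the close relative of ATF6, had 56.5, 54.9 and 48.4 TPM and was 4.27-fold above ATF6 (log2 2.08 ± 0.0561 SE, limma adjusted p = 6.72e-07). With only transcripts typed protein-coding, an alternative added after the data were seen, the difference was 0.90 ± 0.0931 (limma adjusted p = 4.64e-05). EIF2AK3, the PERK gene, had 7.13, 8.48 and 6.93 TPM, lower than ATF6 in 3 of 3 libraries (log2 -0.73 ± 0.0759, limma adjusted p = 0.000197). Against ERN1, EIF2AK3 was higher in 3 of 3 libraries, with ratios of 1.19, 1.27 and 1.44. The difference of 0.37 ± 0.133 on the log2 scale was undecided (adjusted p = 0.0527 by the own-error t-test and 0.0898 by limma). With protein-coding transcripts only, EIF2AK3 had 6.23, 5.73 and 6.02 TPM and the difference from ERN1 was called (log2 0.54 ± 0.0655, adjusted p = 0.000105 by limma and 0.00154 with each gene's own error). ERN2, the IRE1 form of mucosal epithelia, had 0.158, 0.0596 and 0.109 TPM and was 53.6-fold below ERN1 by mean TPM. On the log2(TPM + 0.1) scale the difference was -4.84 ± 0.23 (own-error t-test adjusted p = 6.78e-05). So low a gene depends on the pseudocount, and the difference was -5.70 with a pseudocount of 0.01 and -2.62 with 1.

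The transcription factors stood in different positions to their relatives. ATF5, whose translation is also controlled by upstream frames, had 17.5, 15.7 and 18.2 TPM, 39.7-fold below ATF4 (log2 -5.31 ± 0.0548, limma adjusted p = 1.68e-08). CREB3, a membrane-bound factor cleaved like ATF6, was 3.95-fold below XBP1, with ratios of 0.251, 0.251 and 0.256 (log2 -1.98 ± 0.0234, limma adjusted p = 2.24e-07), and the difference was -2.77 with protein-coding transcripts only. CHOP acts as a dimer with C/EBP proteins, and both tested partners exceeded it. CEBPB had 17.9, 17.0 and 19.6 TPM, 1.84-fold above DDIT3 (log2 0.87 ± 0.0836, own-error t-test adjusted p = 0.000544). CEBPG, which also pairs with ATF4, had 26, 26 and 26.7 TPM, 2.66-fold above DDIT3 (log2 1.40 ± 0.0717, own-error t-test adjusted p = 6.81e-05).

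For the outputs, the stress-regulated form was not always the more abundant one. CHAC2, the slower glutathione-degrading relative, had 28.0, 28.3 and 30 TPM, 7.36-fold above CHAC1 (log2 2.86 ± 0.115, own-error t-test adjusted p = 4.38e-05). PPP1R15B, the constitutive eIF2 phosphatase adaptor, had 27.7, 27.8 and 27.4 TPM, 2.33-fold above PPP1R15A (log2 1.21 ± 0.0311, limma adjusted p = 6.30e-07). In contrast, HERPUD2 had 9.02, 8.72 and 8.55 TPM, 7.04-fold below HERPUD1 (log2 -2.80 ± 0.072, own-error t-test adjusted p = 8.80e-06). The HERPUD2 difference was -1.78 with protein-coding transcripts only. ASNSD1, a gene with an asparagine synthetase domain, was 1.75-fold below ASNS, with ratios of 0.550, 0.570 and 0.591 (log2 -0.81 ± 0.0343, limma adjusted p = 5.73e-07). TRIB2 was 1.96-fold below TRIB3 (log2 -0.96 ± 0.0739, limma adjusted p = 5.43e-05). TRIB1, at 14.1, 12.6 and 12.8 TPM, was close to TRIB3. Its difference of -0.15 ± 0.0532 passed limma's threshold (adjusted p = 0.039), but did not with each gene's own error (0.0567), without replicate 2 (0.122), without replicate 3 (0.172) or with limma fitted without a trend (0.0873).

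**Figure D4:**
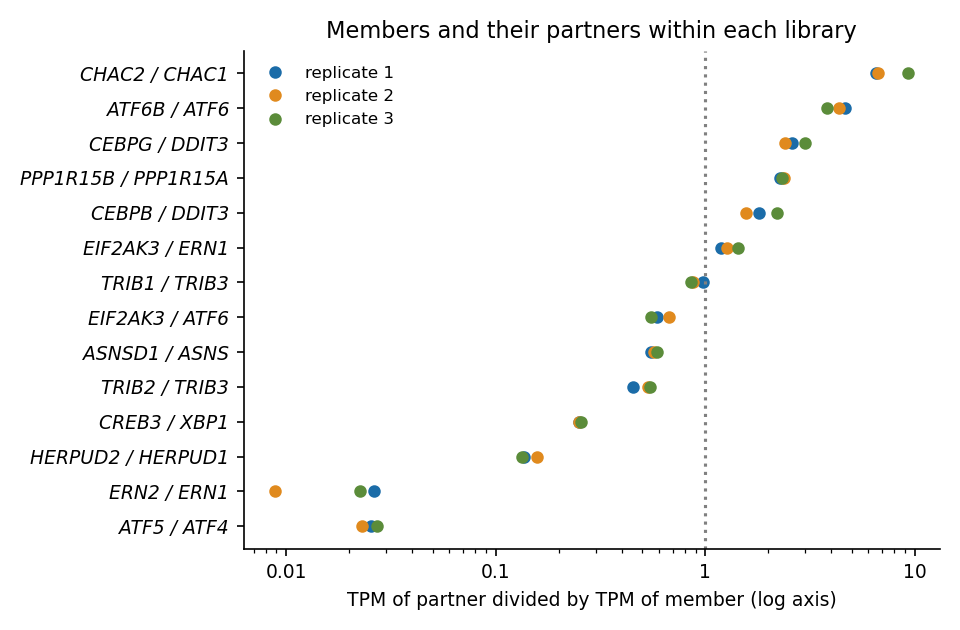
TPM of each partner divided by TPM of the member named after it (horizontal log axis), 1 point per library, with equal levels as a dotted line. The lowest ratios are those of ERN2 over ERN1, 0.0264, 0.00889 and 0.0226, and of ATF5 over ATF4, 0.0254, 0.023 and 0.0271, the highest are 6.57, 6.67 and 9.3 for CHAC2 over CHAC1, and those of TRIB1 over TRIB3, 0.977, 0.876 and 0.855, lie closest to 1.

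The rest of the pathway was read from lists of known components and targets. Beside them, the median was 4.29 TPM over all symbols tested and 6.25 TPM over protein-coding symbols. Of all symbols tested, 58.5% were called above 1 TPM and 33.9% below. All 4 eIF2 kinases were called above 1 TPM, with a median of 23.4 TPM. The haem-regulated EIF2AK1 was the highest, at 112 ± 1.59 TPM, and EIF2AK3 the lowest, at 7.51 ± 0.847. All 8 genes for eIF2 and its exchange factor eIF2B were above 1 TPM (median 88.7), from EIF2B5 at 40.3 ± 1.64 to EIF2S1 at 223 ± 3.46 TPM. All 4 phosphatase genes were above 1 TPM (median 134). The catalytic subunit gene PPP1CC was highest, at 249.9 ± 8.84 TPM, and the adaptor PPP1R15B lowest.

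Of 10 bZIP and related factors of the response, 8 were above 1 TPM, with a median of 17.6 TPM and JUND highest at 55.6 ± 4.34. BATF2 was below, at 0.423, 0.582 and 0.496 TPM (limma adjusted p = 0.00886). NUPR1, a small stress-induced chromatin protein, was undecided at 0.525, 0.926 and 0.879 TPM (limma adjusted p = 0.16). The BATF2 call ended when symbols at 0 in every library were also tested (limma adjusted p = 0.0729) and at a level of 0.5 TPM (0.961), and NUPR1 was called below a level of 2 TPM (0.00405).

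The 18 amino acid synthesis and transport targets of ATF4 were all above 1 TPM, with a median of 112 TPM, near the level of ASNS. PHGDH, the first enzyme of serine synthesis, was highest at 483 ± 16.7 TPM and the neutral amino acid transporter SLC1A4 lowest at 6.58 ± 0.474. Of 12 stress output targets of ATF4 and CHOP, 10 were above 1 TPM (median 21.9), and the mTORC1 inhibitor DDIT4 was highest at 61.9 ± 1.30 TPM. The exceptions were GDF15 and FGF21, both secreted hormones, while the secreted STC2 and VEGFA of the same list were above at 46.4 ± 4.07 and 33 ± 1.26 TPM. GDF15 had 0.384, 0.251 and 0.253 TPM and FGF21 had 0, 0.0607 and 0.0379 TPM, both below 1 TPM (limma adjusted p = 0.00338 and 0.0035). The GDF15 call ended when symbols at 0 were also tested (limma adjusted p = 0.0632).

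In the IRE1 list, 6 of 7 genes were above 1 TPM (median 33), with RTCB, the ligase that joins the cut XBP1 ends, highest at 150.3 ± 4.17 TPM and ERN2 below. All 24 chaperone and degradation targets of XBP1 and ATF6 were above 1 TPM, with a median of 81.6 TPM. The lectin chaperone CANX was highest at 686 ± 3.41 TPM and DERL3, a degradation channel component, lowest at 7.71 ± 1.41. In the list of ATF6 proteases and CREB3 relatives, 7 of 8 were above 1 TPM (median 25.8). The protease MBTPS1 was highest at 64.4 ± 1.96 TPM, and the liver factor CREB3L3 was below at 0.035, 0.0345 and 0 TPM (limma adjusted p = 0.00229). CREB3L1, at 1.86, 1.63 and 1.25 TPM, was the lowest of those above. Its call above 1 TPM ended without replicate 1 (limma adjusted p = 0.0726) and without replicate 2 (0.0776), and against a level of 2 TPM it was undecided (0.0804).

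Of 9 paralogs of the 10 genes, 8 were above 1 TPM (median 17.1), with ASNSD1 highest at 68.8 ± 0.352 TPM and ERN2 the exception. Pseudogenes of ATF4, ASNS and XBP1 were low, with 8 of the 9 listed found in the table. None was above 1 TPM and 7 were below, with a median of 0.0646 TPM, and ASNSP4 was at 0. ASNSP1 was highest at 0.91, 0.365 and 0.418 TPM and was only just called below (limma adjusted p = 0.0493). That call ended without replicate 2 (limma adjusted p = 0.19) or replicate 3 (0.179), and after rescaling that left out mitochondrially encoded genes (0.0667). It was also lost when symbols at 0 were tested (0.148) and at a level of 0.5 TPM (0.887). Of the other pseudogenes called below, ATF4P1 and ATF4P2 each had 0.049, 0.0721 and 0.0726 TPM. ATF4P3 averaged 0.0845 ± 0.0298 TPM, ATF4P4 0.0334 ± 0.0289, ASNSP3 0.0381 ± 0.0379 and XBP1P1 0.222 ± 0.0575. The XBP1P1 call also ended when symbols at 0 were tested (limma adjusted p = 0.0541), which left 5 pseudogenes below.

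**Figure D5:**
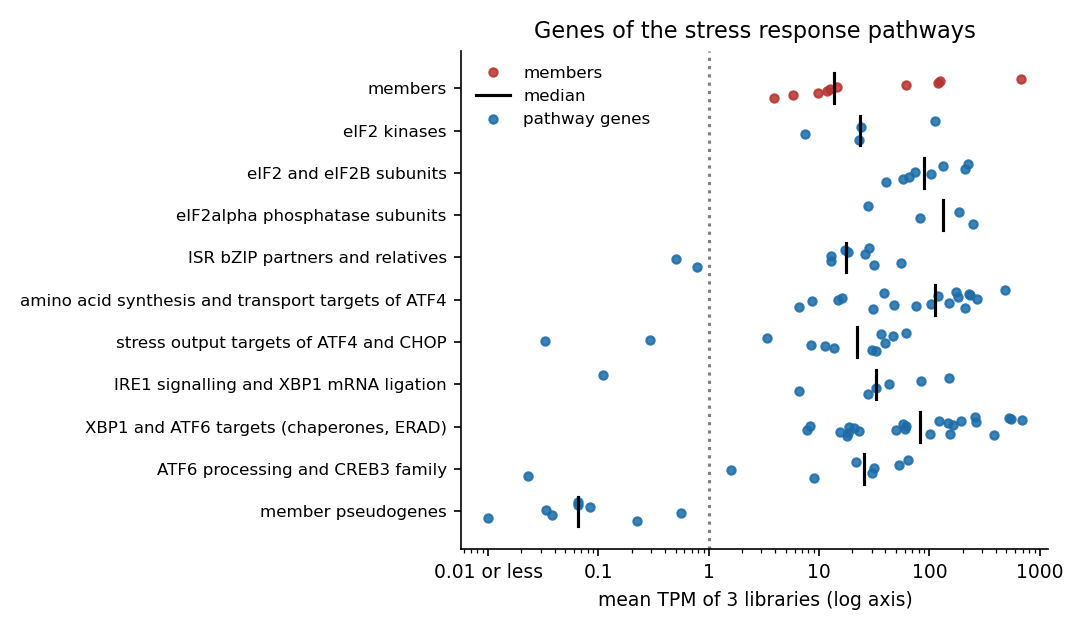
Mean TPM of 3 libraries (horizontal log axis) of the 10 genes (red) and of the listed pathway genes and pseudogenes (blue), with list medians as bars and 1 TPM as a dotted line. Points at or under 0.01 TPM are drawn at 0.01, and points are moved vertically only to keep them apart. The 24 chaperone and degradation targets lie right of 1 TPM with a median of 81.6, and the pseudogenes lie left of it.

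The libraries were alike as a whole, and cell type markers were read from lists chosen with earlier results of these data known. The libraries were compared over the 13475 genes of mean TPM of at least 1, which are not independent replicates. Pearson's r of log2 TPM across those genes lay between 0.9704 and 0.9757 for pairs of libraries, and their median CV was 4.54%. All 5 genes characteristic of the line were above 1 TPM (median 52.7), from SOX2 at 7.41 ± 0.144 to VIM at 401 ± 8.62 TPM. Of all symbols tested, 58.5% were called above 1 TPM and 33.9% below, so marker counts of this kind do not establish the identity of the cells. Of 6 markers of other cell types, none was above 1 TPM. PTPRC, at 0.336, 0.178 and 0.448 TPM, PECAM1 at 0.361, 0.172 and 0.277 and ALB at 0, 0 and 0.0345 were below, and CD3E, UMOD and AQP2 were listed at 0. The PTPRC call ended without replicate 1 (limma adjusted p = 0.0503), when symbols at 0 were also tested (0.0806) and at a level of 0.5 TPM (0.113). The PECAM1 call ended when symbols at 0 were also tested (0.0667), and ALB was at 0 without replicate 3. Because these are bulk samples, a low level such as that of CHAC1 cannot be resolved into few cells or little RNA per cell.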

How the data were processed

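RNA of 3 HEK293T libraries was quantified by the authors. The submitters' processing notes name kallisto and the build hg38, and its version, the transcript release and the strand setting are not given in the sources used here. In the deposited table, values are TPM per transcript and library, which the authors scaled library by library. Per the file headers it also holds a single estimated count column. That column named no library but matched the TPM of replicate 1 within 1.08e-05, so no count test was used.

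TPM was summed by gene symbol. Transcripts were matched by identifier to GENCODE release 29 and version (90.1% matched, 90.5% when versions are ignored), which may differ from the authors' release. Levels were tested with limma 3.58.1 in R 4.3.3 (mean-variance trend) on log2(TPM + 0.01) against 1 TPM, and partner differences on log2(TPM + 0.1) within libraries, with Benjamini-Hochberg adjustment over all symbols and a threshold of 0.05. Folds are ratios of mean TPM over the 3 libraries. Log2 differences with a pseudocount understate those of low genes. Estimated reads per transcript are TPM times the deposited effective length. Shared sequence is the percent of 31-base words found in another gene's transcripts. TMM factors came from edgeR 4.0.16, applied to TPM for scaling only. Both fits were run on simulated data, the partner fit with ATF6 as its only reference. The simulation therefore did not cover the partner fits of DDIT3, CHAC1, HERPUD1 and ERN1.

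The 10 genes, the lists and the pairs were chosen with earlier results of these data known. Genes named were the 10, every partner, and of each list the highest, the lowest and those below 1 TPM, undecided or at 0. Transcripts named were the most abundant of each gene, those with at least 10% of its TPM in a library, and the XBP1 forms. HERPUD1-203, CREB3L1, STC2 and VEGFA were named after their values were seen. Alternatives were other pseudocounts, levels, filters and scalings, limma without a trend, leaving out each library, and, added after the data were seen, protein-coding transcripts only, shares of estimated reads and each gene's own error.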

Additional observations from a re-analysis of the deposited data

How the results depend on the processing

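All 10 genes stayed above 1 TPM in each of the 140 recomputed values (10 genes under 14 alternatives), and no difference changed direction. The number of list genes below 1 TPM changed with the filter and the level. With only genes of mean TPM of at least 0.1 it was 1 for stress output targets, 0 for the ATF6 and CREB3 list and 2 for pseudogenes, since fewer genes were tested. With no filter, which adds the symbols at 0 to the fit, it was 0 for the bZIP factors, 1 for stress output targets and 1 for other cell types, and the cause was not tested. For the bZIP factors it was 0 at a level of 0.5 TPM and 2 at a level of 2 TPM. Leaving out a library gave 12 to 13 called pairs, 6 to 7 genes above in the ATF6 and CREB3 list, 6 to 7 pseudogenes below and 2 to 3 other cell type markers below. Of the pairs, TRIB1 with TRIB3 and EIF2AK3 with ERN1 changed their call, as given above, and 12 were called with each gene's own error. By estimated reads, which give short transcripts less weight, the main transcript held 96.2% of ATF4, 90.1% of ASNS, 96.9% of TRIB3, 56.3% of HERPUD1, 80.4% of XBP1, 96.0% of PPP1R15A, 99.9% of ATF6 and 91.6% of ERN1. Leaving out a library moved the CHAC1-204 share from 42.4% to 77.2%. No paired analysis was possible because there is only 1 group. By read totals per gene, known only for replicate 1, depth was lowest for CHAC1 and DDIT3.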
